A study of Rattus norvegicus with 6 samples.

Results

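Transcript levels of 7 progenitor surface and secreted genes (Pdgfra, Cspg4, Cspg5, Ptprz1, C1ql1, Neu4 and Matn4) were compared between rat oligodendrocyte progenitor cells (OPCs) given fibrinogen and OPCs left without it. The genes were picked by name, and each was read from 1 probe set of the array, so they make up 7 of the 13355 genes tested. There were 3 arrays of primary OPCs from neonatal rat pups that received fibrinogen, the clotting protein of blood plasma, for 48 h in differentiation medium, and 3 control arrays of unstimulated OPCs with the same 48 h in their titles. All cells had first recovered for 2 days in proliferation medium containing PDGF and NT3, which are growth factors. The medium of the controls is not stated, and no label says whether the 3 samples of a group came from separate animals or cultures, so the p-values measure the spread between these samples, which may be technical. Values are the authors' deposited log2 expression values, on which a difference of 1 is a doubling, and all differences are fibrinogen minus control.

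OPCs are dividing glial cells that give rise to the oligodendrocytes of the central nervous system, which make myelin. They depend on PDGF, which they sense through the receptor encoded by Pdgfra, and carry chondroitin sulfate proteoglycans on their surface: core proteins with long sulfated sugar chains, such as NG2 (Cspg4), neuroglycan C (Cspg5) and the receptor-type phosphatase zeta (Ptprz1). As progenitors differentiate, Pdgfra and Cspg4 are switched off and myelin genes are switched on. C1ql1, Neu4 and Matn4 are known from mouse brain as transcripts enriched in progenitors: C1ql1 is a secreted protein with a C1q domain, Neu4 is a sialidase, an enzyme that removes terminal sialic acid from glycoproteins and gangliosides, and Matn4 (matrilin 4) is a secreted adaptor protein of the extracellular matrix.

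The labelled cell type was checked against marker lists. The lineage transcription factor genes Olig1 and Sox10 averaged 11.31 and 9.18 in fibrinogen arrays and 10.85 and 9.27 in control arrays, all above the control arrays' median probe of 5.80. Both were chosen after their values were seen. On the list of 16 other measured progenitor genes that holds both, 1 gene lay below that median in control arrays. Of 13 microglia markers measured, 11 lay below that median in control arrays, as did all 7 endothelial markers and 12 of 14 pericyte, smooth muscle and fibroblast markers. Of the astrocyte, neuron and Schwann cell markers, 3 of 14, 4 of 15 and 4 of 8 lay below it, so most astrocyte and neuron markers did not. In a principal component analysis of all genes, control 1 stood apart from the other controls on the first component (45.7% of variance), at -20.45 against -10.26 and -12.21 for controls 2 and 3, with fibrinogen arrays between 12.19 and 15.86. Results are therefore also given without control 1.

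All 7 genes averaged higher with fibrinogen, and 4 of them passed an adjusted p of 0.05 in limma: Pdgfra, Cspg4, Cspg5 and C1ql1 rose 1.5- to 1.61-fold. Ptprz1, Neu4 and Matn4 did not pass. Of all genes tested, 4.16% rose by the same rule. No member fell, against 3.00% of all genes that fell. The 7 genes had a median log2 difference of 0.58, whereas the median over all genes was 0.003. The fibrinogen arrays did not overlap the control arrays and were higher for 6 of the 7, Neu4 being the exception, and the same held for 15.0% of all genes. Since the genes were chosen with results of these data known, the counts describe them and are no test of the group. None of the 7 changed 2-fold.

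**Figure D1:**
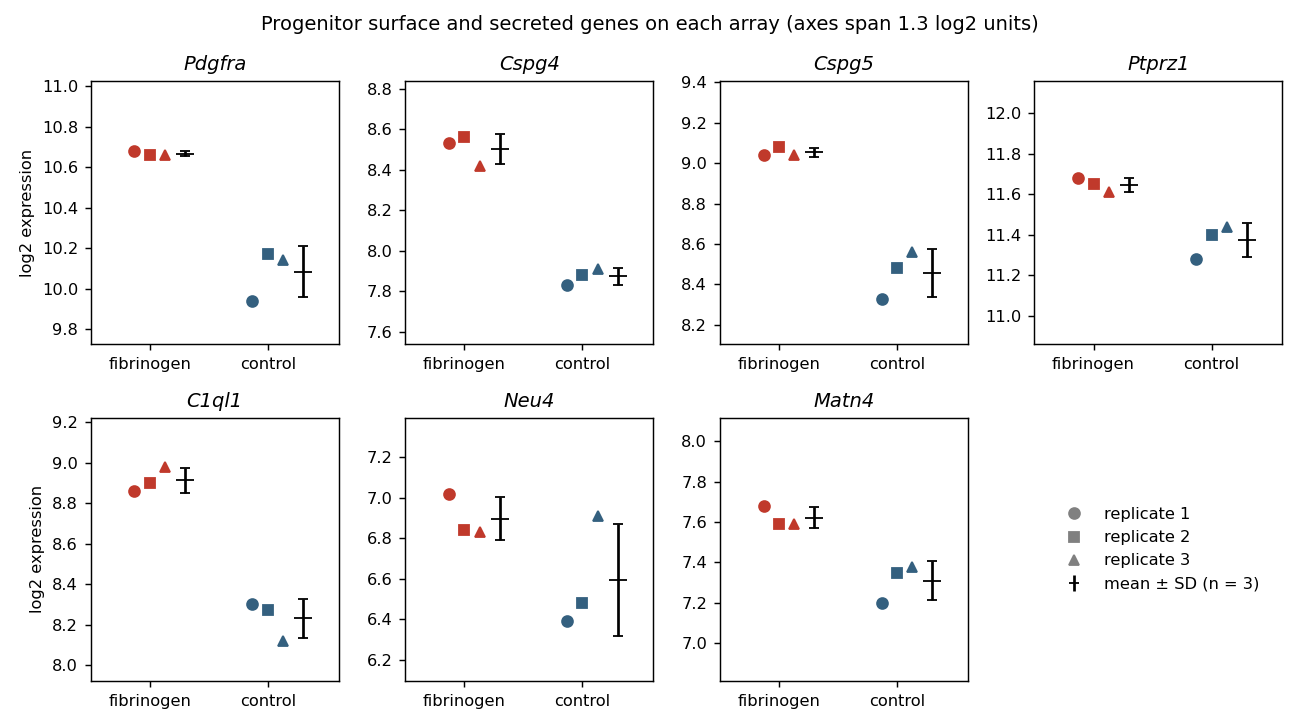
Log2 expression of each gene (vertical axes, each spanning the same width) on the 3 fibrinogen arrays and the 3 control arrays; points are arrays, marker shapes are replicate numbers, and bars are the mean ± SD (n = 3 each). The fibrinogen points lie above all control points in every panel other than Neu4, where control 3 at 6.91 lies above fibrinogen 2 and 3.

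Upstream sequence from RefSeq (build GRCr8) could be matched for 3 of the 7 genes, Pdgfra, Cspg4 and Neu4, and all 3 are shown. Each runs 5′ to 3′ along the gene's strand and stops at the base before the RefSeq gene record. The Pdgfra stretch is chr14:33408605-33408766 (minus strand, 162 bases), that of Cspg4 is chr8:66160692-66160941 (plus strand, 250 bases), and that of Neu4 is chr9:101844011-101844260 (plus strand, 250 bases). For Pdgfra, the start site behind the RefSeq promoter window lies 88 bases inside the gene record, so the window was cut to the 162 bases outside the record, and its distance from the start of transcription depends on which of the 2 starts is taken. Capitals mark matches, on either strand, to any of 4 motifs: CAGCTG (a form of the E-box), ACAANG (the core bound by SOX proteins), CAGACA (the SMAD box) and GGCGCC (a GC-rich SMAD element).
Pdgfra: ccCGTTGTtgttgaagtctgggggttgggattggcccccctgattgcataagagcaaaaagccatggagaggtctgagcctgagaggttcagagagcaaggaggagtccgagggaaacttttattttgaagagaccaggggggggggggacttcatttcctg
Cspg4: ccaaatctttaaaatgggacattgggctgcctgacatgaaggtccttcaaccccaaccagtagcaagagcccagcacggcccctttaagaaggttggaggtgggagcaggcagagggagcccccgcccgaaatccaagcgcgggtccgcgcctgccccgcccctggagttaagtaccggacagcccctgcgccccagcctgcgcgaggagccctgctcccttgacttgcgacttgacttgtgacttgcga
Neu4: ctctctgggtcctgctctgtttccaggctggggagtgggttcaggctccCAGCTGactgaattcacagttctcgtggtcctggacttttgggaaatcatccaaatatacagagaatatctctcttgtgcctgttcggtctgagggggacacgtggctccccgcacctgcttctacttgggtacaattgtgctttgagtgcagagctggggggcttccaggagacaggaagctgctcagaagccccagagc
The Pdgfra stretch held 1 match, to the SOX core, which 25.9% of 33469 rat promoters held in a window of the same length. The Neu4 stretch held 1 match, to the E-box form, which 12% of promoters held in 250 bases. The Cspg4 stretch held none of the 4, and no matches overlapped. GC content was 53.7% for Pdgfra, 62.0% for Cspg4 and 55.2% for Neu4, beside a median of 51.2% over all promoters. The matches describe these letters only.

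Pdgfra encodes the receptor through which PDGF drives the division and survival of progenitors. It stood at 10.68, 10.66 and 10.66 on fibrinogen arrays 1, 2 and 3, and at 9.94, 10.17 and 10.14 on control arrays 1, 2 and 3. The fibrinogen arrays were nearly level and all above the controls, the nearest pair being 0.49 apart, and control 1 was the lowest array. The rise was 1.5-fold (log2 difference 0.58, SE 0.09, 95% interval 0.38 to 0.78, adjusted p = 0.010). The call was lost without fibrinogen 1 (log2 difference 0.58, adjusted p = 0.0504) and stood without control 1 (log2 difference 0.51, adjusted p = 0.0207).

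Cspg4 encodes NG2, a transmembrane proteoglycan that marks progenitors in the brain and also pericytes. Its level was 8.53, 8.56 and 8.42 on fibrinogen arrays 1, 2 and 3 and 7.83, 7.88 and 7.91 on control arrays 1, 2 and 3. The groups lay well apart, with at least 0.51 between any fibrinogen and any control array, and this was the only member whose fibrinogen arrays spread more than its controls. It rose 1.55-fold (log2 difference 0.63, SE 0.08, 95% interval 0.45 to 0.81, adjusted p = 0.00493).

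Cspg5 encodes neuroglycan C, a transmembrane chondroitin sulfate proteoglycan with an EGF-like domain. It was at 9.04, 9.08 and 9.04 on fibrinogen arrays 1, 2 and 3, against 8.33, 8.48 and 8.56 on control arrays 1, 2 and 3. As for Pdgfra, the fibrinogen arrays were nearly level while the controls were spread over 0.23, with control 1 lowest. The rise was 1.51-fold (log2 difference 0.60, SE 0.08, 95% interval 0.40 to 0.79, adjusted p = 0.00859).

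Ptprz1 encodes a receptor-type tyrosine phosphatase whose extracellular part carries chondroitin sulfate and is also made as the secreted matrix protein phosphacan. It gave 11.68, 11.65 and 11.61 on fibrinogen arrays 1, 2 and 3 and 11.28, 11.40 and 11.44 on control arrays 1, 2 and 3. The groups did not overlap, but the nearest pair was only 0.17 apart. The log2 difference was 0.27 (SE 0.08, 95% interval 0.09 to 0.45), and it did not pass (adjusted p = 0.0862). With limma-trend, which ties the expected variance to the level of a gene, Ptprz1 passed (adjusted p = 0.000635), and it passed narrowly when the dimmest 25% of genes were left out (adjusted p = 0.0457).

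C1ql1 was the gene with the largest difference of the 7. Its level was 8.86, 8.90 and 8.98 on fibrinogen arrays 1, 2 and 3, and 8.30, 8.27 and 8.12 on control arrays 1, 2 and 3. Every fibrinogen array was at least 0.56 above every control, and here control 1 was the highest control array, unlike in the other 6 genes, where it was the lowest. The rise was 1.61-fold (log2 difference 0.68, SE 0.08, 95% interval 0.49 to 0.88, adjusted p = 0.00503).

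Matn4 gave 7.68, 7.59 and 7.59 on fibrinogen arrays 1, 2 and 3 and 7.20, 7.35 and 7.38 on control arrays 1, 2 and 3. The groups did not overlap, with a smallest gap of 0.21. The log2 difference was 0.31 (SE 0.08, 95% interval 0.12 to 0.50) and did not pass (adjusted p = 0.0702), although it passed with limma-trend (adjusted p = 0.0320) and without the dimmest genes (adjusted p = 0.0374).

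Neu4 was the 1 gene of the 7 whose groups overlapped. It was at 7.02, 6.84 and 6.83 on fibrinogen arrays 1, 2 and 3 and at 6.39, 6.48 and 6.91 on control arrays 1, 2 and 3. Control 3 was above 2 of the 3 fibrinogen arrays, and the control SD of 0.28 was the widest of the 7 genes. The log2 difference was 0.30 (SE 0.14, 95% interval -0.04 to 0.64, adjusted p = 0.290), so neither no change nor a rise like that of Cspg4 lay outside its interval. Without control 3 the difference was 0.46 and still did not pass (adjusted p = 0.0712).

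**Figure D2:**
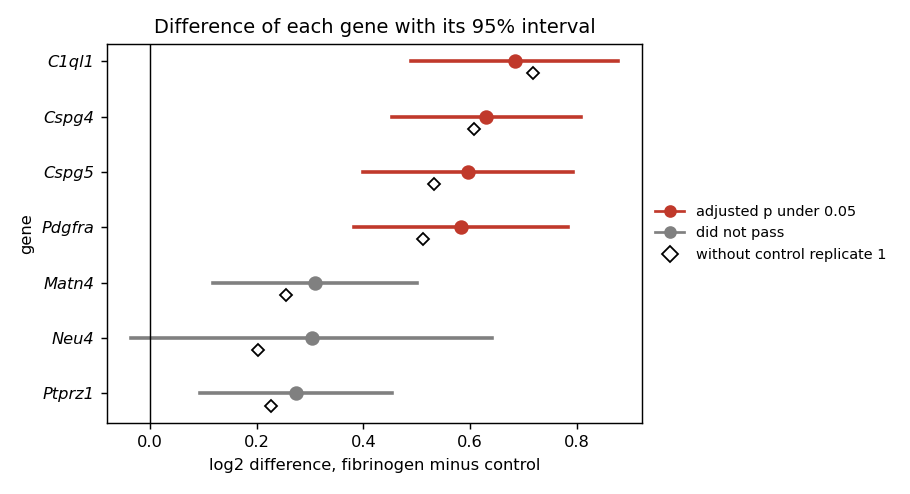
Log2 difference (fibrinogen minus control, horizontal axis) of each gene with its 95% interval in limma; red marks genes past an adjusted p of 0.05, grey those that did not pass, and open diamonds the difference without control 1. The 4 genes that rose lie between 0.58 and 0.68 and the other 3 between 0.27 and 0.31, and only the interval of Neu4 reaches 0.

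The 4 genes that rose had differences near 0.6 and the other 3 near 0.3, but differences between genes were not tested, and the intervals of Pdgfra and Matn4, for example, overlap. Fibrinogen arrays had the smaller SD for 6 of the 7 genes (median SD 0.052 in fibrinogen arrays and 0.096 in control arrays), against 58.5% of all genes tested. Control 1 was the lowest control array for 6 of the 7, against 39.4% of all genes. Without control 1 the differences were 0.51 for Pdgfra, 0.61 for Cspg4, 0.53 for Cspg5, 0.23 for Ptprz1, 0.72 for C1ql1, 0.20 for Neu4 and 0.26 for Matn4, and the same 4 genes passed. Cspg4, Cspg5 and C1ql1 passed with any 1 array left out (highest adjusted p = 0.0314, 0.0446 and 0.0284). Exact permutation of the 6 arrays, two-sided, gave p = 0.3 for Neu4 and p = 0.1 for each of the other 6, the smallest value that 3 arrays against 3 allow.

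**Figure D3:**
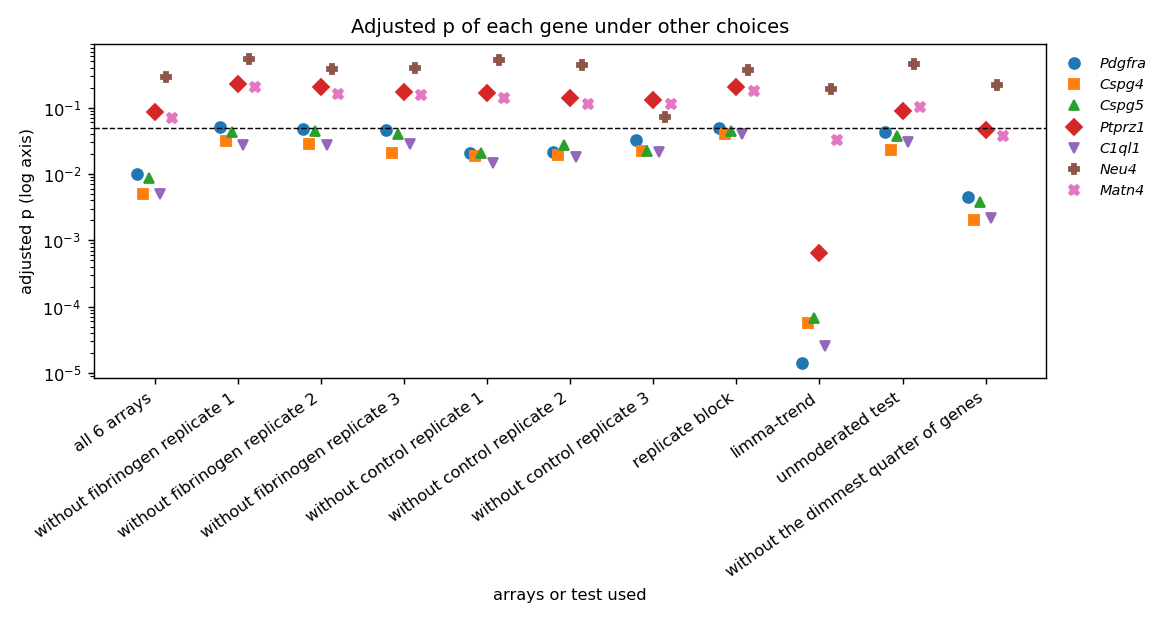
Adjusted p (log axis) of each gene with all 6 arrays, with each array left out in turn, and under 4 other choices of model or gene filter; the dashed line is the threshold of 0.05. Cspg4, Cspg5 and C1ql1 stay below the line throughout, Pdgfra reaches it without fibrinogen 1 (0.0504) and with the replicate block (0.0501), and Neu4 stays above it throughout.

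Genes around each of the 7 were then described from lists written from textbook knowledge. Among the 6 other PDGF ligand and receptor genes, 1 rose, 1 fell and 4 did not pass. Pdgfc, which encodes a ligand of the alpha receptor, was at 8.20 ± 0.13 in fibrinogen arrays and 7.34 ± 0.10 in control arrays (SD, n = 3 each), a log2 difference of 0.86 (SE 0.10, adjusted p = 0.00411). Pdgfa, whose product is the main PDGF ligand of progenitors, fell by 0.35 on the log2 scale (adjusted p = 0.0418), a call that was lost without any 1 array (highest adjusted p = 0.141). The ligand gene Pdgfb was at -0.55 (adjusted p = 0.0842). The beta receptor gene Pdgfrb, chosen after its values were seen, averaged 4.46 in both groups, below the median probe of the control arrays.

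Of 14 growth factor feedback and early target genes, which receptors such as the PDGF receptor induce through the MAP kinase pathway, 7 rose, none fell (1 with limma-trend) and 7 did not pass, with a median log2 difference of 0.36. Etv5, an ETS transcription factor gene, had the smallest p, with 8.43 ± 0.09 in fibrinogen arrays and 7.52 ± 0.15 in control arrays (SD, n = 3 each; log2 difference 0.90, SE 0.10, adjusted p = 0.00411). The immediate early gene Egr1 rose by 0.77 (adjusted p = 0.00477), Spred2, an inhibitor of RAS signaling, by 0.57 (adjusted p = 0.0214), and Dusp6, a phosphatase that inactivates ERK, by 0.49 (adjusted p = 0.0237). Etv1 and Myc were at 0.34 and -0.20 (adjusted p = 0.0516 and 0.198). The count of 7 was 2 to 4 without any 1 array. Spred2 lost its call without any fibrinogen array (highest adjusted p = 0.0866) and Dusp6 without any array other than control 2 (highest adjusted p = 0.0919).

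Of 13 measured ligands and partners of the receptor phosphatase zeta, 3 rose, 2 fell and 8 did not pass. Sdc3 (syndecan 3, a heparan sulfate proteoglycan that, like the phosphatase, binds pleiotrophin) was at 10.49 ± 0.07 in fibrinogen arrays and 9.64 ± 0.04 in control arrays (SD, n = 3 each; log2 difference 0.85, adjusted p = 0.00188). Ptn, the gene of pleiotrophin, rose by 0.35 (adjusted p = 0.0389), a call lost without any 1 array (highest adjusted p = 0.131). The cell adhesion gene Nrcam, named to complete the count, rose by 0.56 (adjusted p = 0.0449, lost without any array other than control 1, highest adjusted p = 0.143). With arrays centred on their medians, 1 of the 13 rose and 3 fell. Nfasc (neurofascin, a cell adhesion molecule) fell by 0.65 (adjusted p = 0.00808) and Tnr (the matrix protein tenascin R) by 0.56 (adjusted p = 0.0118). Leaving out fibrinogen 1 or 3 ended the call of Tnr (adjusted p up to 0.0565). Cntn1 (contactin 1) and Ncam1 (a neural cell adhesion molecule) were at 0.02 and -0.31 (adjusted p = 0.901 and 0.0527). Of 9 other receptor phosphatase genes, none rose, 2 fell and 7 did not pass: Ptpro fell by 0.55 and Ptprj by 0.40 (adjusted p = 0.0205 and 0.0243), and Ptprs was at 0.19 (adjusted p = 0.265). Without 1 array, 0 or 1 of these 9 fell.

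Cspg4, Cspg5 and Ptprz1 carry chondroitin sulfate chains. Of 24 measured genes for making and sulfating the chains, 2 rose, 3 fell and 19 did not pass, with a median log2 difference of 0.09. Xylt1, the xylosyltransferase that starts a chain on the core protein, was at 9.63 ± 0.11 in fibrinogen arrays and 8.97 ± 0.02 in control arrays (SD, n = 3 each; log2 difference 0.67, SE 0.08, adjusted p = 0.00536). Chst7, a sulfotransferase, rose by 0.47 (adjusted p = 0.0261, lost without any array other than control 1, highest adjusted p = 0.0982). Papss2, which makes the sulfate donor, was at 6.50 ± 0.17 in fibrinogen arrays and 7.81 ± 0.02 in control arrays (SD, n = 3 each; log2 difference -1.31, adjusted p = 0.00162). Ust, a uronyl sulfotransferase, fell by 0.86 (adjusted p = 0.00204). B3gat3, which adds a sugar of the linker that joins chain and core protein, was named to complete the count and fell by 0.53 (adjusted p = 0.0286, lost without any 1 array, highest adjusted p = 0.0838). Chst11 and Papss1 were at 0.14 and -0.16 (adjusted p = 0.398 and 0.308).

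Of 18 other measured proteoglycan core genes, 5 rose, none fell and 13 did not pass, and 5 rose with any 1 array left out. Bgn (biglycan, a small secreted proteoglycan) had the largest difference of this list, with 8.26 ± 0.29 in fibrinogen arrays and 6.17 ± 0.13 in control arrays (SD, n = 3 each; log2 difference 2.09, adjusted p = 0.00162). Besides Sdc3, the brain matrix gene Ncan (neurocan) rose by 0.66 and Cd44, the hyaluronan receptor, by 0.73 (adjusted p = 0.00345 and 0.00392). The fifth was Agrn (agrin), which rose by 0.64 (adjusted p = 0.00928) and was named to complete the count. The progenitor matrix genes Vcan (versican) and Bcan (brevican) were at 0.10 and -0.14 (adjusted p = 0.527 and 0.421).

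Close relatives of the secreted genes and of Neu4 mostly did not pass, as was true of 12399 of all 13355 genes tested. Of 14 measured C1q-like family and receptor genes, 10 of which averaged below the median probe in control arrays, 1 rose and 13 did not pass. The list leaves out C1qtnf5, a secreted C1q and TNF related protein gene, which rose by 0.57 (adjusted p = 0.00766). C1qtnf5 kept its call with any 1 array left out (highest adjusted p = 0.0434). The call on the list was Adgrb2, an adhesion G protein-coupled receptor gene, which rose by 0.44 (adjusted p = 0.0290, lost without any 1 array, highest adjusted p = 0.0949). Its relatives Adgrb1 and Adgrb3, of which Adgrb3 is a receptor of C1ql1 in mouse cerebellum, were at 0.24 and 0.03 (adjusted p = 0.106 and 0.934), and the paralog C1ql2, chosen after its values were seen, at -0.19 (adjusted p = 0.259). Of 19 sialidase and sialic acid genes none rose, 1 fell and 18 did not pass. That 1 was the sialyltransferase gene St6gal1, which fell by 0.45 (adjusted p = 0.0421, lost without any 1 array, highest adjusted p = 0.139). The ganglioside synthase gene St3gal5 and the lysosomal sialidase gene Neu1, the second chosen after its values were seen, were each at -0.11 (adjusted p = 0.517 and 0.637). Of 10 measured matrilin and matrix adaptor genes, all 10 of which averaged below the median probe in control arrays, Fbln2 (fibulin 2) rose by 1.10 (adjusted p = 0.00166) and 9 did not pass. Among those 9 were Fbln1 at 0.49 (adjusted p = 0.0624) and the paralog Matn3, chosen after its values were seen, at -0.15 (adjusted p = 0.666).

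Of 16 measured genes of sheddases, their partners and matrix proteases, enzymes of which some cut surface proteoglycans, 2 rose, 3 fell and 11 did not pass. The membrane-type metalloprotease genes Mmp15 and Mmp16 rose by 0.95 and 0.45 (adjusted p = 0.00166 and 0.0126). Adamts4, a protease that cleaves chondroitin sulfate proteoglycans, fell by 0.91 (adjusted p = 0.00166) and the sheddase gene Adam17 by 0.46 (adjusted p = 0.0229), as did Bace1, the beta-secretase gene named to complete the count, by 0.42 (adjusted p = 0.0294, lost without any 1 array, highest adjusted p = 0.104). The call of Mmp16 was lost when control 3, fibrinogen 1 or fibrinogen 3 was left out (adjusted p up to 0.0606), and that of Adam17 without any array other than fibrinogen 3 (highest adjusted p = 0.0903).

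**Figure D4:**
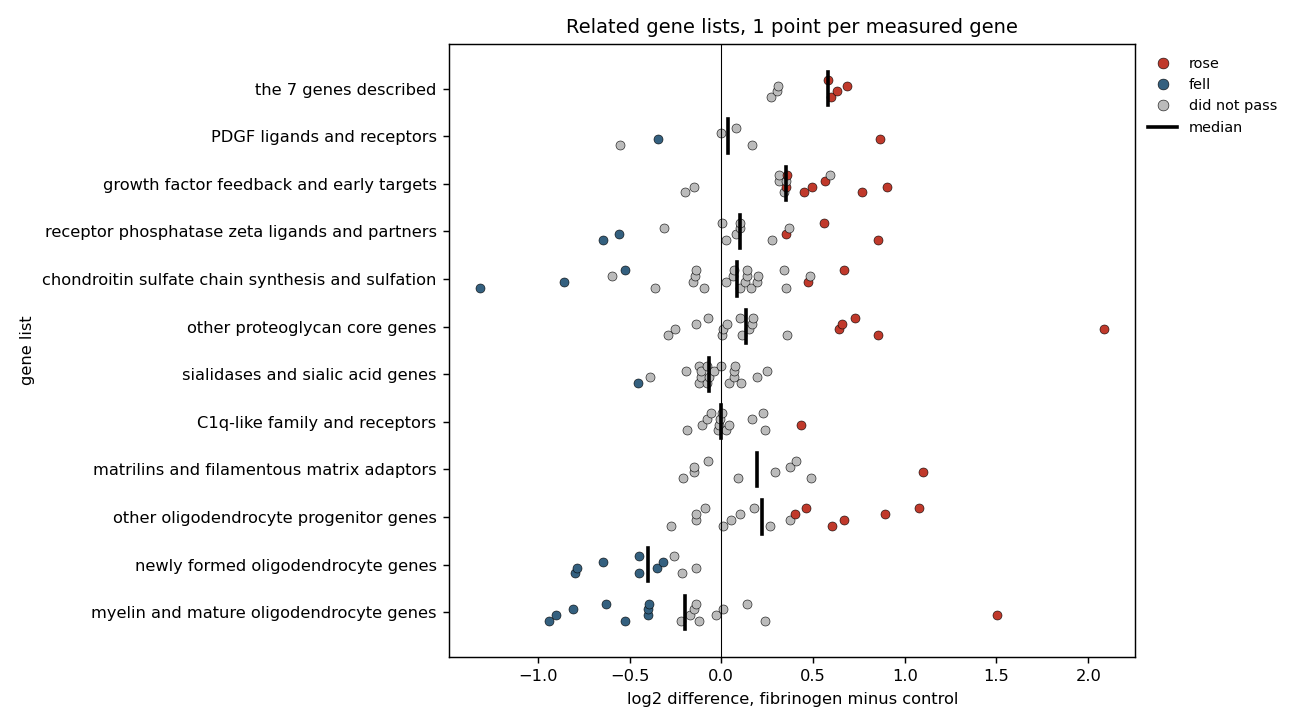
Log2 difference (fibrinogen minus control, horizontal axis) of the 7 genes and of each measured gene of 11 related lists (vertical axis), 1 point per gene; red genes rose, blue genes fell, grey genes did not pass, and black bars are medians. All 10 newly formed oligodendrocyte genes lie left of 0, while the 7 genes described lie right of it. A gene on more than 1 list, such as Gpr17, has a point on each.

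Other progenitor genes and genes of later stages give the setting of the 7. Of 16 other measured progenitor genes, 6 rose, none fell (2 with limma-trend) and 10 did not pass, with a median log2 difference of 0.22. Rlbp1 (a retinaldehyde-binding protein) rose by 0.89 (adjusted p = 0.00304), Cacng4 (an AMPA receptor auxiliary subunit) by 0.60 (adjusted p = 0.00477) and Tmem100 (a small membrane protein) by 1.08 (adjusted p = 0.00487). Xylt1 is also on this list, and Olig1 and the AMPA receptor subunit gene Gria3, named to complete the count, rose by 0.46 and 0.40 (adjusted p = 0.0118 and 0.0317). The count of 6 was 4 or 5 without any 1 array. The call of Gria3 was lost without any 1 array (highest adjusted p = 0.114), and that of Olig1 without fibrinogen 1 or 3 (adjusted p up to 0.056). Gpr17, a receptor of progenitors on the way to differentiation, was at -0.14 (adjusted p = 0.345). Sox10, chosen after its values were seen, was at -0.09 (adjusted p = 0.574).

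Of 10 measured genes of newly formed oligodendrocytes, none rose, 7 fell and 3 did not pass, with a median of -0.40 and no positive value. Gpr17 is on this list as well as on that of progenitor genes. Enpp6, a choline phosphodiesterase, fell by 0.79 (adjusted p = 0.00341), the homeobox gene Nkx6-2 by 0.80 (adjusted p = 0.00814) and the ligand gene Bmp4 by 0.45 (adjusted p = 0.0133), beside Nfasc. The count of 7 was 3 to 5 without any 1 array, and Bmp4 lost its call when control 3 or a fibrinogen array was left out (adjusted p up to 0.0616). Of 18 measured myelin and mature oligodendrocyte genes, 1 rose, 8 fell and 9 did not pass, and 4 or 5 fell without any 1 array. The lipid enzyme genes Fa2h and Ugt8 fell by 0.90 and 0.81 (adjusted p = 0.00166 and 0.00476) and Aspa, which cleaves N-acetylaspartate, by 0.94 (adjusted p = 0.00509). Ermn, a cytoskeletal gene of mature oligodendrocytes, rose by 1.50 (adjusted p = 0.00264), and Mog was at -0.12 (adjusted p = 0.506).

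Some of the 7 genes are also made by other cells: Cspg4 by pericytes, Pdgfra by fibroblasts, and Ptprz1 and Cspg5 by astrocytes. In RNA from whole cultures, more cells of a type and more RNA per cell cannot be told apart. Of 14 astrocyte markers, 6 rose, none fell and 8 did not pass, limma-trend giving equal counts, and the mean level of the list was 7.82 to 7.84 in fibrinogen arrays and 7.52 to 7.56 in control arrays. Gfap, the astrocyte filament gene, rose by 1.00 (adjusted p = 0.00162), Atp1b2 (a sodium pump subunit) by 0.91, Vim (vimentin) by 0.83 and Slc1a2 (a glutamate transporter) by 0.84 (adjusted p = 0.00166, 0.00216 and 0.00480). The median log2 difference of the astrocyte list was 0.04, and 9 of its 14 genes were above 0. Aldoc (aldolase C) and Aqp4 (the water channel aquaporin 4) were at 0.04 and -0.24 (adjusted p = 0.789 and 0.292). Of 14 pericyte, smooth muscle and fibroblast markers other than Cspg4, Tagln (transgelin) rose by 1.21 (adjusted p = 0.00392) and 13 did not pass. That list's mean level was 4.74 to 4.85 in fibrinogen arrays and 4.70 to 4.84 in control arrays, and the pericyte gene Kcnj8, chosen after its values were seen, averaged 4.17 in fibrinogen arrays and 4.27 in control arrays.

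Of 19 measured cell cycle genes, 8 rose, none fell and 11 did not pass, with mean levels of 8.63 to 8.71 in fibrinogen arrays and 8.25 to 8.34 in control arrays. Plk1 and Ccnb2, which act in mitosis, rose by 0.47 and 0.55 (adjusted p = 0.0117 and 0.0119), and Ccnb1 and Top2a by 0.46 and 0.40 (adjusted p = 0.0151 and 0.0222). The count of 8 was 1 to 5 without any 1 array: Plk1 missed the threshold without fibrinogen 2, Ccnb2 without fibrinogen 1 or 3, Ccnb1 without control 3, fibrinogen 1 or fibrinogen 3, and Top2a without any 1 array (adjusted p up to 0.0885). Of 13 microglia markers, Itgam fell by 0.60 (adjusted p = 0.0357, lost without any array other than control 1, highest adjusted p = 0.122) and 12 did not pass. Itgam averaged only 3.10 in fibrinogen arrays and 3.70 in control arrays, below the median probe of the control arrays. The mean level of the list was 4.39 to 4.42 in fibrinogen arrays and 4.49 to 4.69 in control arrays. Of 15 neuron markers, 2 rose, 2 fell and 11 did not pass, with Elavl4 at 0.90 and Syt1 at -1.16 (adjusted p = 0.00204 and 0.00141) and Stmn2 at 0.38 and Elavl3 at -0.37, whose calls were lost without any 1 array (highest adjusted p = 0.108 and 0.104). Of 7 endothelial markers 0 passed in limma, 0 had an unadjusted p under 0.05 and 0 passed with limma-trend. Of 8 Schwann cell markers 0 passed in limma, 3 had an unadjusted p under 0.05, and 1 rose and 1 fell with limma-trend. Among all 13355 genes tested, 2815 had an unadjusted p under 0.05 in limma. The part of these other markers in the levels of the 7 genes was not tested.

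The genes most alike in pattern were sought by the root-mean-square difference between gene-centred log2 values over the 6 arrays, which is a description with no test. Uncharacterised loci (symbols of LOC, RGD or MGC followed by digits) were skipped. For Pdgfra these were C1qtnf5 (a secreted C1q and TNF related protein gene; 0.030) and Cenpk (a centromere protein gene; 0.033), and for Cspg4 they were Myo10 (an unconventional myosin gene; 0.030) and Shc3 (a neural adaptor protein gene; 0.046). The closest to Cspg5 was Arid5b (a DNA-binding protein gene; 0.035), and the next was Pdgfra (0.038). Ptprz1 was most like Ckap5 (a microtubule-associated protein gene; 0.026) and Cbx5 (a heterochromatin protein gene; 0.027). Matn4 was likewise most like Ckap5 (0.013), and next came Ptprz1 (0.027). The genes nearest to C1ql1 were Ece1 (an endothelin-converting enzyme gene; 0.047) and Smpd3 (a neutral sphingomyelinase gene; 0.054). Those nearest to Neu4 were farther away, at 0.057 for Plcd4 (a phospholipase C gene) and 0.059 for Or51af1 (an olfactory receptor gene). In control arrays Plcd4 and Or51af1 averaged 5.51 and 3.90, both below the median probe. Like Neu4, neither passed in limma (adjusted p = 0.259 and 0.453).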

How the data were processed

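RNA of 6 samples was amplified with a NuGEN kit and hybridised to Affymetrix rat arrays, per the labels. The authors deposited log2 expression values per probe set, and the submitters' processing notes name RMA and limma without versions. Filters and genome build are not given in the sources used here. Values are present for 23631 of 26312 probe sets. The 14083 with 1 gene symbol in the platform annotation gave 13355 genes, each read from its probe with the highest mean, and 14059 of these probes matched a RefSeq gene record. Precision is limited by the number of arrays, with a median SE of 0.104 for a log2 difference.

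The groups were compared by limma 3.58.1 under R 4.3.3 with lmFit and eBayes, as a two-sided test without covariates, with Benjamini-Hochberg adjustment over all 13355 genes. The fit was tested on simulated data. The 7 genes and all lists were chosen with earlier results of these data known. From each list up to 4 called genes of smallest p and up to 2 others of highest level could be named, and for each of the 7 genes the 2 nearest in pattern; other names are said to have been chosen afterwards. No 2 arrays held the same column of values. The alternatives were 15: centring, a filter on dim genes, probe averaging, other variance models, array weights, all probes, a replicate block and each array left out.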

Additional observations from a re-analysis of the deposited data

How the results depend on the processing

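All 7 genes kept a positive difference under the 15 alternatives. Cspg4, Cspg5 and C1ql1 kept their call and Neu4 stayed above the threshold under all 15. Adjusted p-values without 1 array ranged from 0.0207 to 0.0504 for Pdgfra, 0.0185 to 0.0314 for Cspg4, 0.0207 to 0.0446 for Cspg5, 0.132 to 0.229 for Ptprz1, 0.0147 to 0.0284 for C1ql1, 0.0712 to 0.539 for Neu4 and 0.114 to 0.207 for Matn4. Ptprz1 and Matn4 passed without the dimmest 25% of genes (adjusted p = 0.0457 and 0.0374; fewer genes are tested) and with limma-trend (0.000635 and 0.0320). Over all genes 555 rose and 401 fell, against 947 and 692 with limma-trend, 268 and 232 with the unmoderated test, and 208 to 379 and 150 to 239 without 1 array; the cause was not tested. With arrays centred on their medians, 434 rose and 516 fell, the same 4 of the 7 genes passed, and the median difference of all genes was -0.043 in place of 0.003. The replicate block gave 199 and 144, and Pdgfra then missed the threshold (adjusted p = 0.0501). Same-numbered arrays did not deviate together (correlations of 0.020, -0.135 and -0.074), and the labels do not say what a shared number stands for, so they were not treated as pairs. Among the genes named here, not all genes tested, the sign changed in 4 that did not pass. With arrays centred, adjusted p was 0.885 for Cntn1, 0.948 for Adgrb3 and 0.985 for Aldoc. With array weights it was 0.960 for Adgrb3 and 0.990 for Pdgfrb. The sign also changed for Cntn1 without fibrinogen 1 and for Adgrb3 without control 1 or fibrinogen 2. For Pdgfrb it changed without control 1, control 3 or fibrinogen 3. Over all fits without 1 array, whether or not the sign changed, adjusted p was 0.839 to 0.978 for Cntn1. It was 0.618 to 0.992 for Adgrb3 and 0.639 to 0.992 for Pdgfrb. Counts of list members were unchanged or within 1.5 times in 462 of 600 cases and moved further in 138. The 462 include counts of 0 that stayed at 0, so they overstate how steady the other counts were. No detection call comes with the values.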
